A study of Mus musculus with 15 samples.

Results

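The Cyp2c genes of mouse chromosome 19 were followed in liver RNA from young mice of 2 strains kept in high oxygen or in room air. The 10 genes described are Cyp2c29, Cyp2c37, Cyp2c38, Cyp2c39, Cyp2c40, Cyp2c44, Cyp2c50, Cyp2c54, Cyp2c67 and Cyp2c68, out of 54532 genes in the deposited table and 18 rows with a Cyp2c name. Of these, 9 were found by the name in the table. Cyp2c44 was found by its gene identifier, ENSMUSG00000025197, because the table lists it as Cyp2c23, and RefSeq gives Cyp2c44 as a synonym of that gene.

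The livers came from BALBc and C57 mice at postnatal day 12 and were analysed by bulk RNA-seq as 15 libraries. The groups were BALBc hyperoxia (n = 4), BALBc normoxia (n = 3), C57 hyperoxia (n = 4) and C57 normoxia (n = 4). Hyperoxia mice breathed 75% oxygen from postnatal day 7 and normoxia mice breathed room air throughout. This exposure is the hyperoxic phase of oxygen-induced retinopathy, a model in which retinal capillaries are lost, and the series asks which metabolic differences go with resistance to it. The labels name the strains only as BALBc and C57, and they state neither which is the resistant one, nor the sex of the mice, nor whether each library came from a separate animal. P-values therefore measure the spread between libraries, which may be partly technical.

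Cyp2c enzymes are haem-containing monooxygenases of the endoplasmic reticulum that receive electrons from the reductase Por. In mouse liver they oxidise drugs and steroids, and several act on arachidonic acid, either as epoxygenases that make epoxyeicosatrienoic acids or as hydroxylases. Epoxyeicosatrienoic acids are short-lived lipid mediators of blood vessel tone and growth, and soluble epoxide hydrolase, the product of Ephx2, converts them to diols. The xenobiotic receptors CAR (Nr1i3) and PXR (Nr1i2), the glucocorticoid receptor and HNF4A are known regulators of Cyp2c transcription.

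All values are FPKM, fragments scaled by exon length and by the fragments of the library, as deposited. The spacing of the lowest values put 1.49e+07 to 1.913e+07 fragments behind each library's values. Libraries fell into 2 classes, seen in the data and not given by the labels, by the share of weakly expressed genes that held exactly 1 fragment. All 4 C57 hyperoxia libraries, BALBc hyperoxia 1, BALBc normoxia 1 and C57 normoxia 4 had many such genes, and the other libraries had few. Albumin and the other hepatocyte markers were abundant everywhere, with a summed level over 6 genes between 64930 and 84720 FPKM. Markers of other cells were present as well. The bile duct list, in which Krt7 stayed under 1 FPKM everywhere, held Spp1 at 30.04 to 52.7 FPKM. Of the pancreatic list, Prss1, Pnlip and Amy2a5 stayed under 1 FPKM in every library, whereas Ctrb1 reached 42.7 FPKM in C57 hyperoxia and 32.06 FPKM in C57 normoxia. Calls rest on an adjusted p under 0.05 (limma on log2(FPKM + 1), Benjamini-Hochberg adjustment over all 13026 genes tested), and log2 changes are on that scale, which understates the change of weakly expressed genes. Of the 10 Cyp2c genes, 9 passed the filter of 1 FPKM in at least 3 libraries.

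Of the 10 genes, 9 lie within a cluster of Cyp2c genes that spans 1.211 Mb of chromosome 19 (GRCm38, 38976647 to 40187333). Cyp2c44 stands apart, 3.818 Mb further on, at 44005022 to 44029208 on the minus strand. The coding sequences of the 45 gene pairs were 60.25% to 97.15% identical, with a median of 78.79%. They fell into 3 close groups, within which identity was at least 89.14%, and Cyp2c44, which was distant from all the others. The first group holds Cyp2c37, Cyp2c50 and Cyp2c54, the second Cyp2c40, Cyp2c67 and Cyp2c68, and the third Cyp2c29, Cyp2c38 and Cyp2c39. Cyp2c67 and Cyp2c68 were 97.15% identical, Cyp2c37 and Cyp2c50 96.13%, and Cyp2c38 and Cyp2c39 94.23%.

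**Figure D1:**
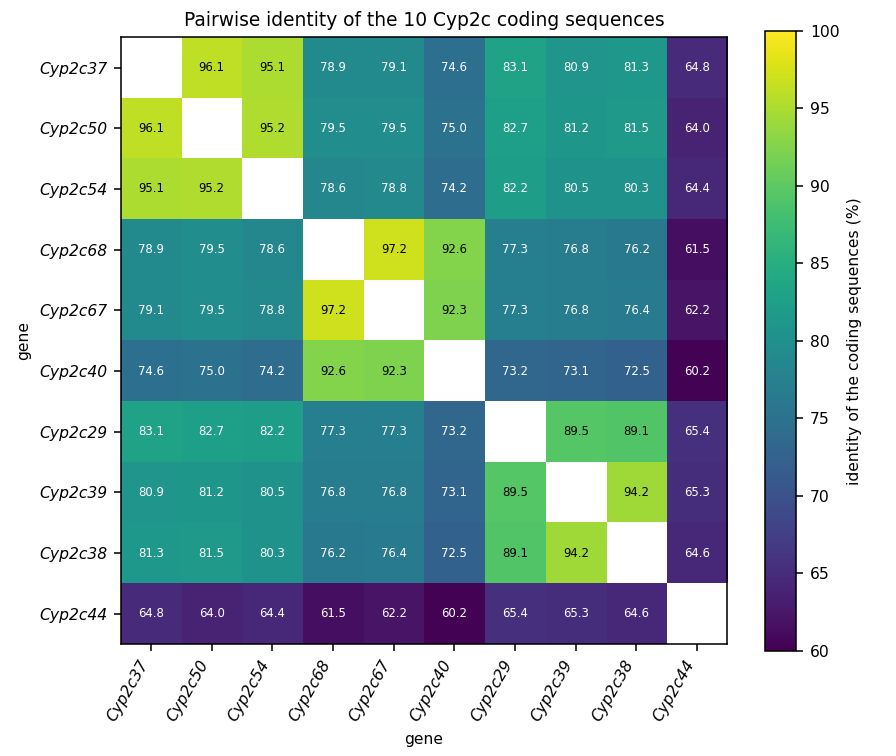
Percentage identity of the aligned coding sequences (colour and number) for each pair of the 10 Cyp2c genes, one gene per row and column. Bright blocks mark the 3 close groups, and Cyp2c44 has no identity above 65.44% with any other of the 10 genes.

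Such likeness limits how well fragments can be assigned to single genes. Of the 100-base windows taken from Cyp2c40 exons, 44.13% occur in another gene as well, against 23.7% for Cyp2c67, 19.82% for Cyp2c68, 9.4% for Cyp2c50, 7.59% for Cyp2c54 and 4.7% for Cyp2c37. No 100-base window taken from Cyp2c29, Cyp2c38, Cyp2c39 or Cyp2c44 was found in another gene. The windows do not cover all exon bases, with 1684 windows for Cyp2c29 against an exon length of 3061 bases. Conversely, 43 of 1344 windows of the pseudogene Cyp2c53-ps occur in Cyp2c29, so Cyp2c29 does share some sequence. Windows of 50 bases were shared more often, at 72.12% for Cyp2c40, 52.76% for Cyp2c67 and 43.28% for Cyp2c68. The 50-base share was 30.74% for Cyp2c50, 30.08% for Cyp2c37, 25.68% for Cyp2c54, 12.05% for Cyp2c39, 7.45% for Cyp2c38 and 2.08% for Cyp2c29. The sources used here do not give how fragments with several matches were counted. Levels of single genes that share windows are therefore uncertain, most of all in the Cyp2c40 group, and sums are given beside them. The only gene whose span overlaps a member is the pseudogene Cyp2c53-ps, next to Cyp2c29, and it was listed at 0 in every library.

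The start-site windows of 5 genes are shown, among them those of Cyp2c67 and Cyp2c68, near-identical genes with opposite strain differences. Cyp2c67, Cyp2c68 and Cyp2c40 have windows that align at 90.55% to 93.31% identity, over 220 to 269 aligned columns. Cyp2c67 was higher in BALBc and Cyp2c68 lower, whereas Cyp2c40 passed neither strain test. Cyp2c39 and Cyp2c29, whose windows shown here are 78.52% identical, are the tested members with the lowest ratios of BALBc hyperoxia to BALBc normoxia levels. The windows are the 300 bases around an annotated start site (RefSeq, GRCm38.p6) and are written 5′ to 3′ on the strand of the gene. Capitals mark TATAAA, CAAAGTCCA (an HNF4A motif) and AGGTCA (a hexamer bound by nuclear receptors).
Cyp2c67, chr19:39648993-39649292, minus strand: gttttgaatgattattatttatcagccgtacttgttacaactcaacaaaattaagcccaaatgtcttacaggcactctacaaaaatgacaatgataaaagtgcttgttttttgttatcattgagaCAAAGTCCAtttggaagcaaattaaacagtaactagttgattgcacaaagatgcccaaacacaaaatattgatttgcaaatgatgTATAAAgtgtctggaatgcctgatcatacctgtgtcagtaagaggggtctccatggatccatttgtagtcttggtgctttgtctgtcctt
Cyp2c68, chr19:39741052-39741351, minus strand: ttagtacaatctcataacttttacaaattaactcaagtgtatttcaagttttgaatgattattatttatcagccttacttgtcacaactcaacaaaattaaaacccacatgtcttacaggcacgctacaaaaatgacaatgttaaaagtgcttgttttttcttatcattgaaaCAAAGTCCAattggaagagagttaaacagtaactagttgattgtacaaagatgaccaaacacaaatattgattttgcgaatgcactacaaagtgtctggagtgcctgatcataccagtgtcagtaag
Cyp2c40, chr19:39812765-39813064, minus strand: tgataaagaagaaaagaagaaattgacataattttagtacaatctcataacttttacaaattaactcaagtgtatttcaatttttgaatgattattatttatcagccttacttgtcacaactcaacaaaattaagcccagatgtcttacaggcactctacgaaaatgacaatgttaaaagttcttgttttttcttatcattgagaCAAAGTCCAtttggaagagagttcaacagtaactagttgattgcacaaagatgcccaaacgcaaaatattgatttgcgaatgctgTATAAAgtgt
Cyp2c39, chr19:39510572-39510871, plus strand: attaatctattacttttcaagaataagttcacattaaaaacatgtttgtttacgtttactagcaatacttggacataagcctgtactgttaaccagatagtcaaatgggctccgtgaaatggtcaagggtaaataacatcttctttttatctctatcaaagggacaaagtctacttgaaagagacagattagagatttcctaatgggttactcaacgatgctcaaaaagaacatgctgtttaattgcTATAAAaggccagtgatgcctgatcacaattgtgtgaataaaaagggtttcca
Cyp2c29, chr19:39286835-39287134, plus strand: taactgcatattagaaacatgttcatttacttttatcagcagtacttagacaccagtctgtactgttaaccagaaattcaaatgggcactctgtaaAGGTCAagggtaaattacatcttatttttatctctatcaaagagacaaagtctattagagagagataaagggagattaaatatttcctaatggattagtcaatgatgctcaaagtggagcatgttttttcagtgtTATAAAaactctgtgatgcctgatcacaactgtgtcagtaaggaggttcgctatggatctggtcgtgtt
The letters CAAAGTCCA, searched on both strands, occur in 0.47% of 32851 mouse windows of the same length and in the windows of Cyp2c40, Cyp2c67 and Cyp2c68. TATAAA occurs in 13.62% of all windows and in those of Cyp2c67, Cyp2c40, Cyp2c39, Cyp2c29 and Cyp2c38. AGGTCA occurs in 16.26% of all windows and in those of Cyp2c29 and of an upstream start site of Cyp2c39. GTTAAT, part of the HNF1 motif, occurs in 7.1% of windows and in those of Cyp2c40 and Cyp2c68, and TTGCGCAA, a C/EBP motif, in 0.18% and in none of these. Relative to the annotated start site, TATAAA lies at -40 in Cyp2c67, -31 in Cyp2c38, -19 in Cyp2c29, -3 in Cyp2c39 and 40 in Cyp2c40. The last is downstream of the start, so these matches are not at comparable positions. A match is a stretch of letters and not a measured binding site.

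The 10 genes had about the same summed level with and without extra oxygen and a much lower one in BALBc than in C57. Their summed FPKM was 335.5, 329.8, 295.2 and 360.4 in BALBc hyperoxia, and 370.4, 325.2 and 385.6 in BALBc normoxia. It was 705.6, 746.8, 648.9 and 616.2 in C57 hyperoxia, and 647.2, 686.5, 653.3 and 661.3 in C57 normoxia. All 7 BALBc sums were below all 8 C57 sums, whereas the hyperoxia and normoxia sums overlapped within each strain. BALBc hyperoxia livers averaged 330.3 ± 26.9 and C57 hyperoxia livers 679 ± 58.2 (SD, n = 4 each), a log2 ratio of -1.04. BALBc normoxia livers averaged 360.4 ± 31.4 (SD, n = 3) and C57 normoxia livers 662 ± 17.2 (SD, n = 4), a log2 ratio of -0.88. Hyperoxia over normoxia gave a log2 ratio of -0.13 in BALBc and 0.04 in C57. Since the sum is a score over chosen genes, no test was made on it. It leaves out Cyp2c70 and other Cyp2c rows. With all Cyp2c rows the log2 ratio between strains in normoxia was -0.37. With oxygen it was then -0.41 in BALBc and 0.17 in C57. In bulk tissue, fewer cells of a type and less RNA per cell cannot be told apart.

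**Figure D2:**
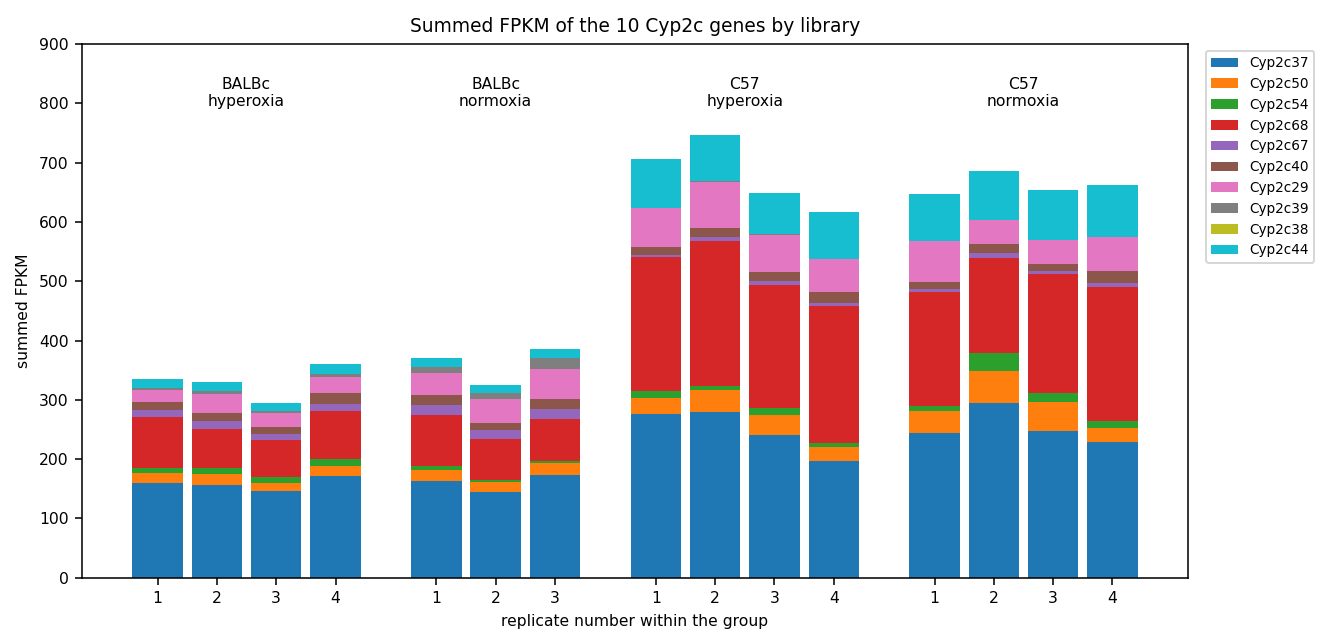
Summed FPKM (y axis) of the 10 Cyp2c genes in each of the 15 liver libraries, with 1 bar per library and 1 colour per gene. BALBc bars end between 295.2 and 385.6 FPKM and C57 bars between 616.2 and 746.8 FPKM, and Cyp2c37 and Cyp2c68 fill most of every bar.

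Cyp2c37, whose product hydroxylates arachidonic acid, held the largest mean share of the sum in all 4 groups, with 48.1% in BALBc hyperoxia, 44.4% in BALBc normoxia, 36.5% in C57 hyperoxia and 38.3% in C57 normoxia. Cyp2c68 came second with mean shares of 22.2%, 20.9%, 33.6% and 29.4% in the same 4 groups. Cyp2c44 held 4.62% in BALBc hyperoxia, 4.08% in BALBc normoxia, 11.4% in C57 hyperoxia and 12.5% in C57 normoxia. At the bottom of the order, Cyp2c38 was listed at 0 in 12 of 15 libraries. It had 3 fragments in BALBc normoxia 1 and 1 fragment each in C57 hyperoxia 3 and C57 normoxia 4. A count of 0 at this depth allows at most 0.0547 to 0.0702 FPKM (the level of 3 fragments, counting error only), so Cyp2c38 was close to or under the limit of detection in all groups. The fragments of Cyp2c38 were all in libraries with many genes at 1 fragment. Libraries with few such genes also had fewer genes above 0, such as 16011 in C57 normoxia 2 against 21216 in C57 normoxia 4. For those libraries the bound may be too low.

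**Figure D3:**
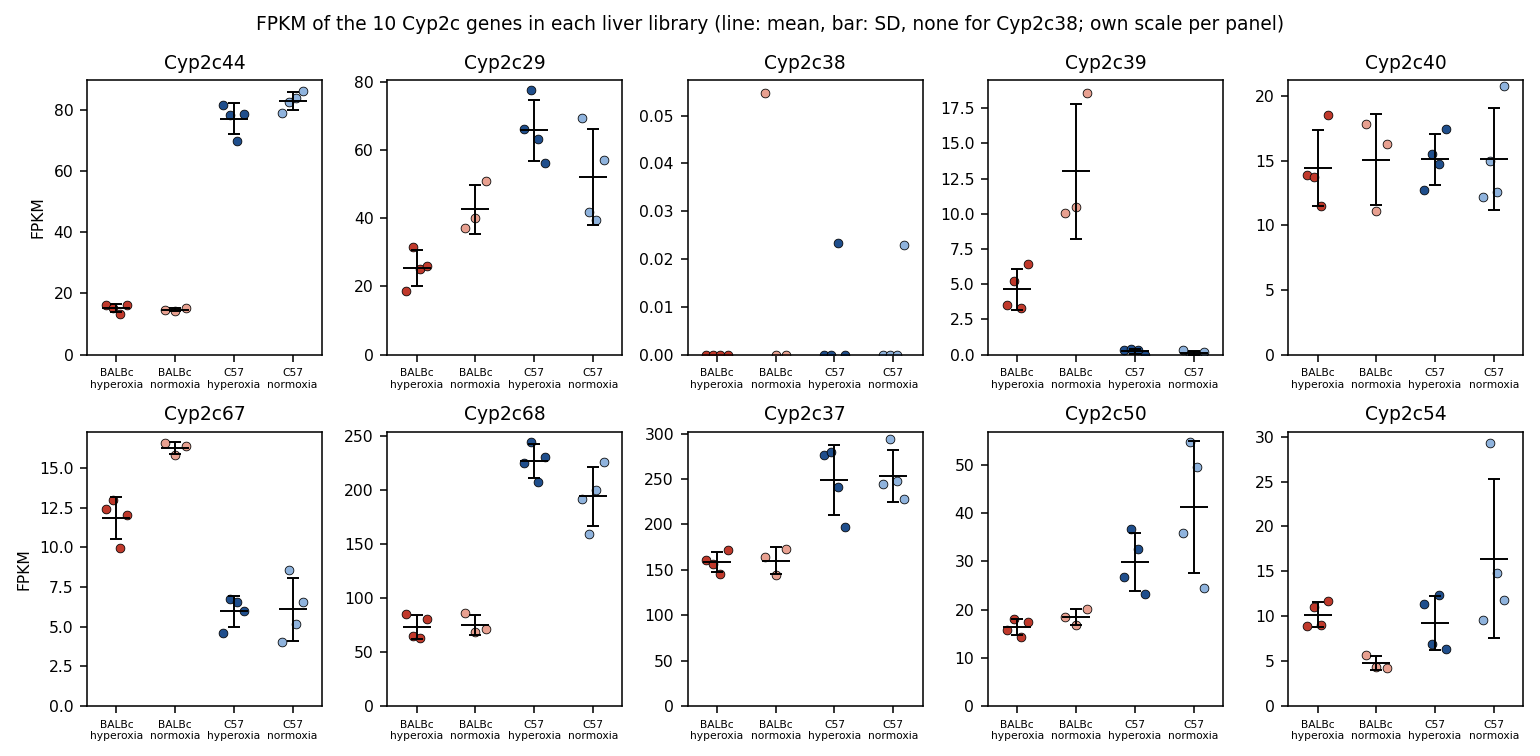
FPKM (y axis, own scale in each panel) of each Cyp2c gene by group, with 1 point per library, a line for the mean and a bar for the SD. Cyp2c44, Cyp2c68 and Cyp2c37 separate the strains downwards in BALBc, Cyp2c39 and Cyp2c67 upwards, and Cyp2c40 does not separate them.

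The strain comparison asks how livers of the 2 strains differed at each oxygen level. Of the 9 genes tested, 7 were called between BALBc normoxia and C57 normoxia, with 2 higher and 5 lower in BALBc, and 30% of all genes were called. Between BALBc hyperoxia and C57 hyperoxia 7 were also called, again 2 higher and 5 lower, and 23.2% of all genes were called. The 2 higher genes were Cyp2c67 and Cyp2c39, and the second entered the test only through the BALBc libraries where it is high, so these counts and medians are a description. In each comparison the groups of 7 genes did not overlap, against 30% of all genes in normoxia and 32.3% in hyperoxia. The median log2 change of the 9 genes was -0.66 in normoxia and -0.63 in hyperoxia, against 0.0106 in normoxia and -0.0017 in hyperoxia over all genes. Both strain comparisons and both oxygen comparisons share groups, so their values are given side by side and not as independent support. Reads of both strains were aligned to GRCm38, an assembly of the C57BL/6J strain, and the effect of sequence differences in BALBc on the counts was not tested. In hyperoxia the strain nearly coincides with the class of library. All C57 hyperoxia libraries and, in BALBc hyperoxia, only number 1 had many genes at 1 fragment. With the class as a term, 1935 genes were called there instead of 3025, and the 7 Cyp2c genes were still called.

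Cyp2c44, an arachidonic acid epoxygenase gene, had the lowest log2 change of the family in BALBc. It stood at 16.3, 15.2, 13.3 and 16.3 FPKM in BALBc hyperoxia, against 81.7, 78.4, 70.06 and 78.7 FPKM in C57 hyperoxia. In normoxia it stood at 14.65, 14.2 and 15.1 FPKM in BALBc, against 78.95, 82.6, 84.07 and 86.1 FPKM in C57. No library lay between the highest BALBc level of 16.3 FPKM and the lowest C57 level of 70.06 FPKM. The log2 change was -2.27 ± 0.07 (SE) in hyperoxia (adjusted p = 9.67e-12, limma) and -2.42 ± 0.08 in normoxia (adjusted p = 1.37e-11, limma). BALBc averaged 15.3 ± 1.39 FPKM in hyperoxia, against 77.2 ± 4.99 FPKM in C57, which is 5.06 times as much, and the same ratio of means was 5.66 in normoxia. None of the 1867 50-base windows taken from Cyp2c44 exons was found in another gene.

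Within the group of Cyp2c37, Cyp2c50 and Cyp2c54, which oxidise arachidonic acid, Cyp2c37 and Cyp2c50 were lower in BALBc at both oxygen levels. Cyp2c37 stood at 160.5, 157, 146 and 172 FPKM in BALBc hyperoxia, against 277, 279, 242 and 198 FPKM in C57 hyperoxia. In room air it stood at 164, 144 and 173 FPKM in BALBc, against 244, 295, 247 and 228 FPKM in C57. The strains did not overlap in either comparison, and the log2 change was -0.63 ± 0.11 in hyperoxia (adjusted p = 0.000712, limma) and -0.66 ± 0.12 in normoxia (adjusted p = 0.000713, limma). Cyp2c50 averaged 16.4 ± 1.65 FPKM in BALBc hyperoxia and 29.8 ± 6.03 FPKM in C57 hyperoxia (SD, n = 4 each), a log2 change of -0.81 ± 0.20 (adjusted p = 0.00898, limma). In normoxia Cyp2c50 averaged 18.5 ± 1.61 FPKM in BALBc (SD, n = 3) and 41.2 ± 13.7 FPKM in C57 (SD, n = 4), a log2 change of -1.06 ± 0.22 (adjusted p = 0.00196, limma). The C57 normoxia libraries spread widely for this gene, between 24.5 and 54.8 FPKM.

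Cyp2c54 was lower in BALBc in room air and passed no strain test after hyperoxia. In room air it stood at 5.67, 4.40 and 4.24 FPKM in BALBc, against 9.59, 29.3, 14.9 and 11.8 FPKM in C57, and the groups did not overlap. The log2 change was -1.48 ± 0.29 (adjusted p = 0.00146, limma). The highest value was that of C57 normoxia 2, and without it the log2 change was -1.17 (adjusted p = 0.00133, limma). After hyperoxia Cyp2c54 stood at 8.91, 11, 9.02 and 11.7 FPKM in BALBc, against 11.3, 6.92, 12.4 and 6.34 FPKM in C57. These groups overlapped, with a log2 change of 0.16 (95% interval -0.42 to 0.74, adjusted p = 0.723, limma).

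The second group split in opposite directions. Cyp2c68 stood at 85.6, 65.02, 62.9 and 80.4 FPKM in BALBc hyperoxia, against 225, 245, 208 and 231 FPKM in C57 hyperoxia. In normoxia it stood at 85.9, 68.5 and 71.5 FPKM in BALBc, against 192, 159.6, 200.2 and 226 FPKM in C57. Both comparisons were free of overlap, with log2 changes of -1.63 ± 0.12 (adjusted p = 1.38e-07, limma) in hyperoxia and -1.35 ± 0.13 (adjusted p = 2.15e-06, limma) in normoxia. Cyp2c67, its nearest relative in sequence, stood at 12.4, 13.0, 9.94 and 12.05 FPKM in BALBc hyperoxia, against 4.61, 6.72, 6.54 and 6.01 FPKM in C57 hyperoxia. Normoxia values of Cyp2c67 were 16.6, 15.8 and 16.4 FPKM in BALBc, against 4.02, 8.60, 5.19 and 6.58 FPKM in C57. Every BALBc library was thus above every C57 library, with log2 changes of 0.89 ± 0.16 (adjusted p = 0.00107, limma) in hyperoxia and 1.33 ± 0.18 (adjusted p = 4.99e-05, limma) in normoxia. Cyp2c40, an arachidonic acid hydroxylase gene, averaged 14.4 ± 2.93 FPKM in BALBc hyperoxia, 15.1 ± 3.54 FPKM in BALBc normoxia, 15.1 ± 1.97 FPKM in C57 hyperoxia and 15.1 ± 3.95 FPKM in C57 normoxia (SD, n = 4, 3, 4 and 4). It passed neither strain test, with 95% intervals of -0.46 to 0.31 in hyperoxia and -0.41 to 0.41 in normoxia on the log2 scale.

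Because these sequences share windows, the balance within the group is also given as a ratio and a sum. Cyp2c67 had 0.145 to 0.1999 of the level of Cyp2c68 in BALBc hyperoxia and 0.0204 to 0.0315 in C57 hyperoxia. In normoxia the ratio was 0.193 to 0.232 in BALBc and 0.0209 to 0.0539 in C57. The sum of Cyp2c40, Cyp2c67 and Cyp2c68 averaged 99.8 ± 13.8 FPKM in BALBc hyperoxia and 248 ± 16.5 FPKM in C57 hyperoxia (SD, n = 4 each). In normoxia the same sum averaged 107 ± 12.7 FPKM in BALBc (SD, n = 3) and 216 ± 29.01 FPKM in C57 (SD, n = 4). The sum was lower in every BALBc library than in any C57 library, as was that of Cyp2c37, Cyp2c50 and Cyp2c54. Cyp2c69, no member, is 97.7% identical to Cyp2c67 in coding sequence. With it the sum averaged 146 ± 26.96 FPKM in BALBc hyperoxia and 302.5 ± 20.2 FPKM in C57 hyperoxia, and 164 ± 36.2 FPKM in BALBc normoxia and 256.5 ± 37.01 FPKM in C57 normoxia. The strains still did not overlap, and the log2 ratio was -1.05 with Cyp2c69 and -1.32 without it in hyperoxia, and -0.64 with it and -1.02 without it in normoxia.

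Cyp2c39, whose product hydroxylates retinoic acid, was higher in BALBc, against the direction of most of the family. It stood at 3.53, 5.25, 3.32 and 6.43 FPKM in BALBc hyperoxia, against 0.311, 0.4004, 0.295 and 0 FPKM in C57 hyperoxia. In normoxia it stood at 10.07, 10.5 and 18.6 FPKM in BALBc, against 0.308, 0, 0 and 0.216 FPKM in C57. The C57 values rest on 0 to 11 fragments per library and the BALBc values on 91 to 521, so Cyp2c39 was at or near the limit of detection in C57. A count of 0 allows at most 0.0863 to 0.111 FPKM at 3 fragments, counting error only. The gene passed the filter on low values only through its BALBc libraries, so its strain difference is a description, and its size on the log2 scale depends on the pseudocount.

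Cyp2c29, an arachidonic acid epoxygenase gene known as a target of CAR, was lower in BALBc after hyperoxia and did not pass the test in room air. It stood at 18.7, 31.7, 25.1 and 25.9 FPKM in BALBc hyperoxia, against 66.2, 77.6, 63.2 and 56.3 FPKM in C57 hyperoxia. The groups did not overlap and the log2 change was -1.36 ± 0.18 (adjusted p = 7.99e-05, limma). In normoxia it stood at 37.3, 40.04 and 50.9 FPKM in BALBc, against 69.6, 41.95, 39.7 and 57.2 FPKM in C57. These groups overlapped, with a log2 change of -0.26 (95% interval -0.68 to 0.17, adjusted p = 0.363, limma). The difference between the 2 strain comparisons equals the difference between the oxygen responses, and for Cyp2c29 it had an adjusted p of 0.0786 (limma).

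**Figure D4:**
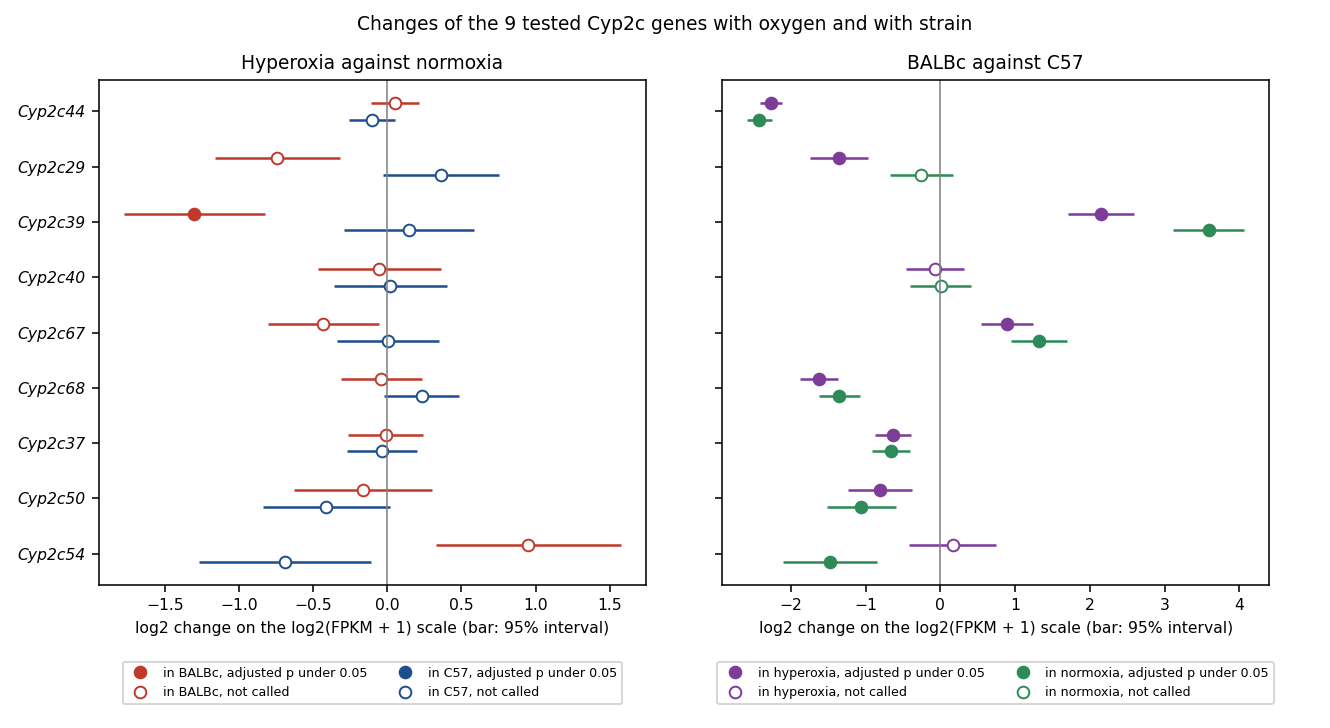
Log2 change (x axis) of the 9 tested Cyp2c genes with 95% intervals (bars), with hyperoxia against normoxia on the left and BALBc against C57 on the right. Filled points had an adjusted p under 0.05. Strain changes reach from -2.42 for Cyp2c44 to 3.59 for Cyp2c39, which is near the limit of detection in C57, and of the oxygen changes that of Cyp2c39 in BALBc is filled.

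The oxygen comparison asks what hyperoxia did to these genes within each strain. In BALBc, 1 of the 9 genes tested was called, and it was lower, with 0.944% of all genes called and 0.537% called lower. This was Cyp2c39, which averaged 4.63 ± 1.48 FPKM in hyperoxia (SD, n = 4) and 13.03 ± 4.79 FPKM in normoxia (SD, n = 3), with the values of each library given above. The 4 hyperoxia libraries lay below the 3 normoxia libraries. The log2 change was -1.30 ± 0.22 (adjusted p = 0.0123, limma). The call was lost without BALBc normoxia 3, whose value of 18.6 FPKM is the highest (log2 change -1.04, adjusted p = 0.083, limma). It was also lost with a pseudocount of 0.1 (log2 change -1.47, adjusted p = 0.306), with only the libraries that had few genes at 1 fragment (log2 change -1.36, adjusted p = 0.185), and with only the BALBc groups in the model (adjusted p = 0.0768).

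For 3 further genes the BALBc hyperoxia and normoxia libraries did not overlap, although none passed the test. In all, the groups of 4 of the 9 genes did not overlap, against 13.6% of all genes. Cyp2c29 averaged 25.4 ± 5.32 FPKM in hyperoxia and 42.7 ± 7.18 FPKM in normoxia, a log2 change of -0.74 ± 0.20 (adjusted p = 0.0995, limma). Cyp2c67 averaged 11.9 ± 1.33 FPKM in hyperoxia and 16.3 ± 0.39 FPKM in normoxia, a log2 change of -0.43 ± 0.18 (adjusted p = 0.308, limma). Cyp2c54 had the opposite sign, with 10.2 ± 1.40 FPKM in hyperoxia and 4.77 ± 0.78 FPKM in normoxia, a log2 change of 0.95 ± 0.29 (adjusted p = 0.163, limma). Cyp2c54 passed the test when only the BALBc groups were in the model (adjusted p = 0.0263) and without C57 normoxia 2 (adjusted p = 0.0422), the library with 29.3 FPKM. The ratio of Cyp2c54 to Cyp2c50 was 0.567 to 0.671 in BALBc hyperoxia and 0.211 to 0.308 in BALBc normoxia. The other 5 tested genes, Cyp2c37, Cyp2c40, Cyp2c44, Cyp2c50 and Cyp2c68, had log2 changes between -0.16 and 0.05.

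The sum of the Cyp2c29 group, Cyp2c29, Cyp2c38 and Cyp2c39, was 22.2, 37.0, 28.4 and 32.4 FPKM in BALBc hyperoxia, against 47.4, 50.5 and 69.4 FPKM in BALBc normoxia. It was thus lower in every hyperoxia library, and its share of the family averaged 9.11% in hyperoxia and 15.4% in normoxia. The summed level of 8 periportal hepatocyte markers was 1194 to 1474 FPKM in BALBc hyperoxia and 1586 to 2168 FPKM in BALBc normoxia. Of the 8, 2 were called lower, Cyp2f2 and the urea cycle enzyme gene Cps1, against 0.537% of all genes. Pck1 averaged 620.1 ± 93.9 FPKM in hyperoxia and 685 ± 114 FPKM in normoxia and passed no test. The pericentral sum over 8 genes was 2468 to 2685 FPKM in hyperoxia and 2588 to 2936 FPKM in normoxia, and none of these genes was called. The part of these marker shifts in the Cyp2c changes was not tested.

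In C57, 0 of the 9 genes were called by limma, with 0.937% of all genes called and 0.714% called lower. At an unadjusted p under 0.05 the count was 1, Cyp2c54, and there was no gene whose groups did not overlap, against 7.88% of all genes. Cyp2c54 averaged 9.25 ± 3.06 FPKM in hyperoxia and 16.4 ± 8.86 FPKM in normoxia (SD, n = 4 each), a log2 change of -0.69 ± 0.27 (adjusted p = 0.253, limma). Cyp2c50 averaged 29.8 ± 6.03 FPKM in hyperoxia and 41.2 ± 13.7 FPKM in normoxia, a log2 change of -0.41 ± 0.20 (adjusted p = 0.381, limma). Cyp2c29 averaged 65.8 ± 8.89 FPKM in hyperoxia and 52.1 ± 14 FPKM in normoxia, a log2 change of 0.36 ± 0.18 (adjusted p = 0.394, limma). Cyp2c68 averaged 227 ± 15.6 FPKM in hyperoxia and 195 ± 27.3 FPKM in normoxia, a log2 change of 0.23 ± 0.12 (adjusted p = 0.4, limma). For Cyp2c37, Cyp2c39, Cyp2c40, Cyp2c44 and Cyp2c67 the log2 change lay between -0.10 and 0.15.

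The class of library and the oxygen level nearly coincide in C57, since all 4 hyperoxia libraries and only C57 normoxia 4 had many genes at 1 fragment. With the class as a term in the model, Cyp2c68 had a log2 change of 0.01 and Cyp2c50 of -0.16 in C57, whereas Cyp2c54 had -0.60 and Cyp2c29 0.50. In C57 normoxia 4, Cyp2c68 stood at 226 FPKM and Cyp2c50 at 24.5 FPKM, both within the range of the hyperoxia libraries. C57 normoxia 4 is also the highest of its group for Cyp2c68 and the lowest for Cyp2c50.

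The interaction asks whether the oxygen response differed between strains, as the BALBc response minus the C57 response. Of the 9 genes, 1 was called, and it was negative, with 0.821% of all genes called and 0.445% called with a negative difference. Cyp2c39 had a difference of -1.45 ± 0.30 on the log2 scale (adjusted p = 0.0423, limma), and with C57 close to 0 fragments this is nearly the BALBc response alone. That call held in 7 of 24 refits. It was lost without C57 hyperoxia 1, 2 or 3, C57 normoxia 2 or 3, BALBc hyperoxia 1, 2 or 3, or BALBc normoxia 2 or 3, each left out singly, with adjusted p-values of 0.0561 to 0.107. Cyp2c29 had a difference of -1.10 ± 0.27 (adjusted p = 0.0786, limma) and Cyp2c54 of 1.64 ± 0.40 (adjusted p = 0.0757, limma). Without C57 normoxia 1 both were called, with an adjusted p of 0.0372 for Cyp2c29 and 0.0477 for Cyp2c54 (limma). The other 6 genes had differences of -0.44 to 0.25.

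Outside the 10 genes, the cluster holds 7 further Cyp2c rows, of which Cyp2c55, Cyp2c69 and Cyp2c70 passed the filter. Cyp2c70, whose product makes muricholic acids from other bile acids in mice, was called in all 5 comparisons. It stood at 145, 133, 121 and 162 FPKM in BALBc hyperoxia, against 287, 257 and 264 FPKM in BALBc normoxia. In C57 it stood at 258, 272, 241 and 293 FPKM in hyperoxia, against 177, 150.0, 219 and 190.1 FPKM in normoxia. It was thus lower with oxygen in BALBc, with a log2 change of -0.94 ± 0.12 (adjusted p = 0.00248, limma), and higher with oxygen in C57, with 0.54 ± 0.11 (adjusted p = 0.0376, limma). The difference between these responses was -1.48 ± 0.16 (adjusted p = 0.00105, limma). Of the other 2 tested rows, Cyp2c55 was called in 1 comparison and was lower in BALBc hyperoxia, with 1.09 ± 0.90 FPKM, against 6.08 ± 2.36 FPKM in C57 hyperoxia (SD, n = 4 each, adjusted p = 0.00314, limma). Cyp2c69 was called in none.

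Adding these rows changes the family sum, mainly through the level of Cyp2c70. The sum of all Cyp2c rows averaged 518 ± 60.2 FPKM in BALBc hyperoxia and 689 ± 66.2 FPKM in BALBc normoxia, a log2 ratio of -0.41. In C57 it averaged 1006 ± 56.95 FPKM in hyperoxia and 893 ± 25.8 FPKM in normoxia, a log2 ratio of 0.17. With all rows the hyperoxia and normoxia libraries no longer overlapped in either strain. Between strains the log2 ratio with all rows was -0.37 in normoxia and -0.96 in hyperoxia. For the 10 genes it was -0.88 in normoxia and -1.04 in hyperoxia.

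Genes that act with or beside the Cyp2c enzymes are given as counts, to be read against the 23.2% of all genes called between strains in hyperoxia, the 30% called in normoxia, and the 0.944% in BALBc and 0.937% in C57 called with oxygen. Of 20 other drug and steroid P450 genes tested, 11 were called higher and 4 lower in BALBc hyperoxia than in C57 hyperoxia, and 14 higher and 3 lower in BALBc normoxia than in C57 normoxia. Their median log2 change was 0.38 in hyperoxia and 0.73 in normoxia, whereas that of the Cyp2c genes was negative in both. Between the strains, 11.9% of all genes were called higher in hyperoxia and 15.4% in normoxia. With oxygen, Cyp2a5 and Cyp2f2 were called lower in BALBc, and none of the 20 was called in C57. Among the Cyp2j genes, which encode further epoxygenases, Cyp2j5 and Cyp2j6 of 3 tested were called higher in BALBc at both oxygen levels. Cyp2j5 averaged 109.7 ± 13.4 FPKM in BALBc hyperoxia and 67.9 ± 3.48 FPKM in C57 hyperoxia (SD, n = 4 each), a log2 change of 0.68 ± 0.09 (adjusted p = 6.83e-05, limma). Its oxygen response also differed between strains, by -0.70 ± 0.13 (adjusted p = 0.0263, limma).

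Ephx2, the soluble epoxide hydrolase gene, was higher in BALBc at both oxygen levels. It averaged 172 ± 15.7 FPKM in BALBc hyperoxia and 113 ± 5.25 FPKM in C57 hyperoxia, a log2 change of 0.60 ± 0.08 (adjusted p = 8.84e-05, limma). Of 12 genes for electron supply and haem synthesis, the haem genes Alas1, Alad and Cpox were called higher and the reductase gene Por lower in BALBc in both strain comparisons. Por averaged 70.8 ± 9.93 FPKM in BALBc hyperoxia and 97.96 ± 3.80 FPKM in C57 hyperoxia, a log2 change of -0.47 ± 0.09 (adjusted p = 0.00138, limma). None of the 12 passed the test with oxygen in either strain, and Alas1, the rate-limiting gene of haem synthesis in liver, had a log2 change of -0.84 ± 0.19 in BALBc (adjusted p = 0.0588, limma).

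Of 21 receptors and factors known to control Cyp2c genes, 9 were called higher and 3 lower in BALBc hyperoxia than in C57 hyperoxia, and 7 higher and 1 lower in normoxia. Over all genes, 11.9% were called higher and 11.3% lower in hyperoxia, and 15.4% higher and 14.6% lower in normoxia. Both directions together, the normoxia count is near the 30% of all genes called. By direction, 7 of 21 higher is above the background share and 1 of 21 lower is below it, and this lean was not tested. PXR (Nr1i2) was among the higher ones in both, with log2 changes of 0.40 in hyperoxia and 0.24 in normoxia (adjusted p = 0.000665 and 0.0262, limma). CAR (Nr1i3) had a log2 change of 0.56 in hyperoxia (adjusted p = 0.0495, limma) and of 0.27 in normoxia (adjusted p = 0.366), and the difference between the 2 was not called (adjusted p = 0.74). Cux2, a repressor known from female liver in adult mice, was lower in BALBc in both, with log2 changes of -1.0 in hyperoxia and -2.06 in normoxia (adjusted p = 0.00723 and 3.26e-05, limma). With oxygen, 0 of the 21 were called in either strain. Of 10 Cyp4 genes tested, which encode fatty acid hydroxylases, 5 were called higher and 1 lower in BALBc hyperoxia than in C57 hyperoxia, and 2 higher and 4 lower in normoxia. The oxygen response of Cyp4a10, Cyp4a14 and Cyp4f14 differed between strains, Cyp4a14 was called lower with oxygen in C57 and Cyp4a32 higher in BALBc.

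Among 13 genes of arachidonate release and other eicosanoid routes, 6 were called higher and 3 lower in BALBc hyperoxia than in C57 hyperoxia. In normoxia 4 were called higher and 1 lower, together near the 30% of all genes called. By direction, 15.4% of all genes were called higher and 14.6% lower in normoxia. The desaturase gene Fads1 was called higher with oxygen in BALBc, and the prostaglandin dehydrogenase gene Hpgd was called in the interaction. Of 11 retinoid genes, 3 were called higher and 2 lower in BALBc in each strain comparison and 0 with oxygen. Aldh1a1, which makes retinoic acid, was higher in both, with log2 changes of 1.26 in hyperoxia and 1.75 in normoxia (adjusted p = 0.00109 and 9.8e-05, limma).

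Markers of some cell types also differed between strains. Their counts are to be read against all genes, of which 23.2% were called in hyperoxia and 30% in normoxia. By direction, 11.9% were higher and 11.3% lower in BALBc in hyperoxia, and 15.4% higher and 14.6% lower in normoxia. With oxygen, 0.944% were called in BALBc and 0.937% in C57. Pericentral markers summed to 2468 to 2685 FPKM in BALBc hyperoxia and 1684 to 2040 FPKM in C57 hyperoxia, and to 2588 to 2936 FPKM in BALBc normoxia and 1431 to 1792 FPKM in C57 normoxia. Cyp2e1 alone made up most of this sum, with 2241 ± 84.7 FPKM in BALBc hyperoxia and 1534 ± 116 FPKM in C57 hyperoxia. Of the 8 genes, Cyp2e1 and Cyp1a2 were called higher in both comparisons and Oat in normoxia. The count in hyperoxia, 2 of 8, is near the share of all genes called in either direction. Glul, at 133 ± 13 FPKM in BALBc hyperoxia and 146 ± 24.6 FPKM in C57 hyperoxia, passed no test, and the median log2 change of the list was 0.0535 in hyperoxia and 0.34 in normoxia. Periportal markers summed to 1194 to 1474 FPKM in BALBc hyperoxia and 1423 to 2025 FPKM in C57 hyperoxia. Of these 8 genes, Cyp2f2, Hal, Cps1 and Gls2 were called lower, and the median log2 change was -0.47. In normoxia they summed to 1586 to 2168 FPKM in BALBc and 1441 to 1708 FPKM in C57. There Cyp2f2 and Arg1 were called higher and Gls2 lower, with a median of 0.28. Kupffer cell markers, summed over 6 genes, reached 158.8 to 209.9 FPKM in BALBc hyperoxia and 312 to 378 FPKM in C57 hyperoxia, with all 6 called lower. In normoxia they reached 174.5 to 187 FPKM in BALBc and 325 to 504 FPKM in C57, with 5 of 6 called lower. Bile duct markers summed to 37.7 to 42.9 FPKM in BALBc hyperoxia and 48.98 to 70.1 FPKM in C57 hyperoxia, and to 38.7 to 43.7 FPKM in BALBc normoxia and 52.8 to 68.7 FPKM in C57 normoxia. Sinusoidal endothelial, stellate and erythroid sums overlapped between strains in both comparisons. With oxygen, the pericyte gene Rgs5 was called lower in both strains, the transferrin receptor gene Tfrc lower in BALBc and the Kupffer cell gene Clec4f higher in C57. Pancreatic markers summed to at most 6.26 FPKM in BALBc and reached 53.1 FPKM in C57 hyperoxia. The part of these shifts in the Cyp2c differences was not tested.

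Log2 changes between strains spanned a narrower range at flanking genes than at the Cyp2c genes. The highest Cyp2c value, 3.59 in normoxia, is that of Cyp2c39, which was near the limit of detection in C57. The next highest member was Cyp2c67, with 1.33 in normoxia. The 3 tested genes before the cluster, Noc3l, Tbc1d12 and Hells, had log2 changes of -0.28 to 0.0738 in hyperoxia and of -0.17 to 0.16 in normoxia, and 0 of 3 were called in either strain comparison or with oxygen. Their group means were only 1.55 to 2.87 FPKM, a level at which this scale understates changes. Around Cyp2c44, Abcc2, Dnmbp, Cpn1, Erlin1, Chuk and Cwf19l1 had log2 changes of -0.32 to 0.55 in hyperoxia and -0.25 to 0.58 in normoxia. In each comparison 4 of these 6 were called, a higher share than the 23.2% of all genes in hyperoxia and 30% in normoxia. Along the cluster, the neighbours Cyp2c39 and Cyp2c67 were higher in BALBc, while Cyp2c68 next to Cyp2c67 was lower, as were Cyp2c37 and Cyp2c50 further on.

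The Cyp2c genes moved with each other only in part. After subtracting group means, 22 of 36 gene pairs had a correlation above 0 across the 15 libraries, with a median r of 0.08 and a range of -0.42 to 0.73. The highest value was that of Cyp2c29 with Cyp2c39, and Cyp2c37 with Cyp2c50 had 0.68. The pair with the lowest value was Cyp2c54 with Cyp2c68. Across all 15 libraries, which fall into 2 clusters by strain, the genes of 5445 compared whose log2 level was most like that of the family sum were Hdac1 (r = 0.984), Pde6c (0.983), Cep85 (0.982), Rpl26 (0.981) and Rpl29 (0.979). After subtracting group means they were Trmt10c (0.89), Cdadc1 (0.845), Cyp3a16 (0.839), Actr2 (0.76) and Lgals8 (0.758). These values are descriptions of 15 libraries that share depth and preparation within a library.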

How the data were processed

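Liver RNA was extracted with TRIzol and made into libraries with the NEBNext Ultra II kit, per the labels' protocols. HISAT2 2.0.5, featureCounts 1.5.0-p3 and GRCm38 (mm10) are named in the submitters' processing notes. The annotation, the strand setting and the treatment of fragments with several matches are not given in the sources used here. The authors deposited FPKM values for 54532 genes in 15 libraries, per the file headers. From these, fragment numbers were derived with GENCODE M21 exon lengths (54409 identifiers matched, 123 did not). Low values, under 30 fragments, were within 0.05 of a whole number in 98.17% to 98.7% of cases. A share of weakly expressed genes at 1 fragment above or below 25% set the class of a library. Bounds from 3 fragments cover counting error only and may be too low in libraries with few genes at 1 fragment.

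Genes with at least 1 FPKM in at least 3 libraries were tested with limma 3.58.1 (R 4.3.3) on log2(FPKM + 1), a pseudocount of 1, with a mean for each of the 4 groups, a variance trend and Benjamini-Hochberg adjustment over all 13026 genes. The fit was tested on simulated data. Sums and ratios were computed in Python 3.11.15 and carry no test, and sequences were aligned with Biopython 1.88. Two-sided tests covered 5 comparisons: oxygen in each strain, strain at each oxygen level, and their interaction. All 10 members were named. Of the pathway lists, genes called in any comparison or among the smallest p in the oxygen comparisons could be named. The flanking genes were the 3 nearest tested protein-coding genes before the cluster and on each side of Cyp2c44, and those after the cluster are not reported here. Genes most like the family sum were the 5 with the highest r among those with a mean of at least 5 FPKM. The members, the lists and the tests were chosen with earlier results of these data known. No 2 libraries held identical values, and the highest correlation between 2 libraries was 0.9853. Alternatives covered the pseudocount, the filter, the scaling, the model, the replicate number, Xist as a covariate, the library class and leaving out each library.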

Additional observations from a re-analysis of the deposited data

Results flagged for a closer look

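Cyp2c39 was flagged because its oxygen response differed between strains, by -1.45 on the log2 scale as the BALBc response minus the C57 response (adjusted p = 0.0423, limma). All 4 BALBc hyperoxia libraries were below all 3 BALBc normoxia libraries, whereas the C57 libraries held 0 to 11 fragments of this gene at either oxygen level, so that a fall in C57 could not have been seen and the difference is nearly the BALBc change alone. The call held in 7 of 24 refits.

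Cyp2c38 was flagged for a library far from the others of its group in C57 hyperoxia, at 0.02337 FPKM, and in C57 normoxia, at 0.02282 FPKM. Each value stands for 1 fragment against 0 in the other 3 libraries, which is within counting error. Of 29 groups of 4 libraries examined, chance would flag about 1 in 20, but that rate does not apply to these flags. A group with 1 value above 0 and the rest at 0 is always flagged.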

How the results depend on the processing

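The 14 strain results called for single Cyp2c genes were called in every refit, those of Cyp2c39 resting on its near absence in C57, and of 407 refits of the 16 called results 386 kept the call, 21 lost it and 0 changed sign. In BALBc with oxygen, 1 Cyp2c gene was called, 0 with a pseudocount of 0.1 or with only the libraries with few genes at 1 fragment, and 0 to 2 with 1 library left out. The 2 were reached without C57 normoxia 2, where Cyp2c54 was called, and the 0 without BALBc normoxia 3. In the interaction 1 was called, 0 with a pseudocount of 0.1, no filter, quantile normalization, no variance trend, the replicate block or the library class as a term, 2 with a filter at 5 FPKM or with Xist as a covariate, and 0 to 3 with 1 library left out. With the filter at 5 FPKM these were Cyp2c29 and Cyp2c54, and with Xist Cyp2c39 and Cyp2c54. Same-numbered libraries did not pair (1 of 21 correlations above 0.1, range -0.049 to 0.214). The replicate block gave 1 call in BALBc and 0 in C57 with oxygen, 7 in each strain comparison and 0 in the interaction, where Cyp2c39 had -1.47 (adjusted p = 0.0845).

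The log2 ratio of the family sum moved with all Cyp2c rows to 0.17 in C57 and -0.41 in BALBc with oxygen and to -0.37 between strains in normoxia. Without Cyp2c37, the member of highest level, it moved to -1.03 between strains in normoxia and -1.33 in hyperoxia. With 1 library left out it ranged from -0.01 to 0.08 in C57 and -0.19 to -0.07 in BALBc with oxygen, and from -0.93 to -0.81 between strains in normoxia and -1.09 to -0.99 in hyperoxia.

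Signs turned only among values that passed no test. In C57 with oxygen, Cyp2c37 had 0.0408 with quantile normalization and 0.007 with Xist, Cyp2c39 -0.11 with quantile normalization, Cyp2c40 -0.22 with the class, and Cyp2c67 -0.0013 with median scaling and -0.0757 with the class. In BALBc with oxygen, Cyp2c37 had 0.0684 with quantile normalization, 0.0276 with the replicate block, 0.0164 with Xist and 0.0014 with few-fragment libraries alone, where Cyp2c40 had 0.0847, and Cyp2c68 had 0.0401 with quantile normalization. In the interaction with the class, Cyp2c37 had -0.0104, Cyp2c40 0.19 and Cyp2c50 -0.0291. Between strains, Cyp2c40 had -0.0095 with median scaling, -0.0149 with Xist and -0.0252 with the class in normoxia, and 0.16 with the class in hyperoxia. With 1 library left out, C57 oxygen changes ranged from -0.10 to 0.0708 for Cyp2c37, -0.0652 to 0.17 for Cyp2c40 and -0.15 to 0.16 for Cyp2c67. BALBc oxygen changes ranged from -0.0856 to 0.0448 for Cyp2c37, -0.25 to 0.0735 for Cyp2c40 and -0.12 to 0.0579 for Cyp2c68, and interactions from -0.0819 to 0.0841 for Cyp2c37 and -0.27 to 0.0533 for Cyp2c40. Strain changes of Cyp2c40 ranged from -0.13 to 0.19 in normoxia and -0.19 to 0.02 in hyperoxia.

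Counts over all genes moved by more than 1.5 times. C57 with oxygen had 122 calls, 70 with no filter, 74 with no variance trend, 20 with only the groups compared, 79 with the replicate block, 67 with Xist, 14 with the class and 36 to 237 with 1 library left out. BALBc with oxygen had 123, 78 with no filter, 12 with few-fragment libraries alone and 24 to 156 with 1 library left out. The interaction had 107, 29 with no filter, 67 with the replicate block, 28 with the class and 40 to 162 with 1 library left out. Strain comparisons had 3910 in normoxia, 2242 with only the groups compared and 2174 with few-fragment libraries alone, and 3025 in hyperoxia, 1935 with the class. The cause of these shifts was not tested. C57 hyperoxia has no library with few genes at 1 fragment, so that alternative was not run for the comparisons with it, and the interaction needs all 4 groups. Depth limits Cyp2c38 in all groups and Cyp2c39 in C57.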
